A study of Mus musculus with 11 samples.

Results

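The asparagine and glutamine tRNAs were taken as every tRNA gene whose name ends in AsnGTT, GlnCTG or GlnTTG, where the last 3 letters are the anticodon. This rule, which uses no measured value, gave 30 of the 433 genes listed, namely 14 AsnGTT, 10 GlnCTG and 6 GlnTTG gene copies. Reads per tRNA gene were counted in small RNA libraries from the brain frontal lobe of C57BL/6 mouse embryos. The libraries came from wild-type embryos at E13.5 (1 sample) and E18.5 (4 samples), and from Nsun2 -/- embryos at E13.5 (2 samples) and E18.5 (4 samples). Nsun2 encodes an RNA methyltransferase that adds a methyl group to cytosines of many tRNAs, and the study asked how its loss changes tRNA processing in the developing brain. The labels do not say which of the study's Nsun2 -/- mouse lines was used. The study's methods name 4 independent biological replicates per genotype for these libraries, and a figure legend gives 4 mice per genotype. At E13.5 only 1 wild-type and 2 Nsun2 -/- samples were available here. The labels do not say how many embryos made up a sample. The tRNA counts hold no mRNA, and the loss of Nsun2 and the labelled tissue could not be checked in them.

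Total counts lay between 4011 and 9827 per sample, and the 30 genes held 6.26% to 7.99% of them. The smallest share that 3 counts allow lay between 0.031% and 0.075%. Intervals of single shares are 95% Wilson intervals, and they cover counting error only. Of the 12 pairs of samples within one genotype at E18.5, 6 differed by no more than sampling noise in a chi-square test over genes (closest pair, Nsun2 -/- samples 1 and 2, p = 0.933). The samples were kept apart because their labels give them as separate, and summing the closest pair of each genotype changed no call for an asparagine or glutamine family.

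Each tRNA carries its amino acid to the ribosome and reads the codons that pair with its anticodon. The GTT anticodon serves both asparagine codons, AAC and AAT, the CTG anticodon reads the glutamine codon CAG, and the TTG anticodon reads CAA. Copies of a tRNA gene with the same anticodon make up an isoacceptor family and are transcribed by RNA polymerase III from separate places in the genome. In the mouse many of them lie in clusters, and copies often differ by only 1 or a few bases. NSUN2 methylates tRNAs mostly near the junction of the variable arm and the T stem, and tRNAs lacking the mark are known to be cut more readily by the nuclease angiogenin.

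The sequences below are the longest reads, with the anticodon in its usual surroundings, that the study lists under the leading copies, and they are shown to make clear how little separates the listed reads of one copy from those of another. The anticodon is in capitals and each sequence is written 5′ to 3′ as DNA.
chr11.trna1817-GlnCTG: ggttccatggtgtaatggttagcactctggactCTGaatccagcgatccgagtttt
chr13.trna87-GlnCTG: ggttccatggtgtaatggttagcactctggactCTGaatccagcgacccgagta
chr11.trna1493-GlnTTG: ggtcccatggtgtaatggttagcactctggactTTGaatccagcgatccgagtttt
chr13.trna113-GlnTTG: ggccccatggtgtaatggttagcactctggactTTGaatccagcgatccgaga
chr11.trna1446-AsnGTT: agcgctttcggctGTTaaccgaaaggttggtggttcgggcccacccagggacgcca
chr2.trna1947-AsnGTT: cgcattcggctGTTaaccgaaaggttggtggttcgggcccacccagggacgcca
chr10.trna381-AsnGTT: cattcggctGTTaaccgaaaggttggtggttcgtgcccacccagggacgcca

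Positions are counted from 1 at the 5′ end of the first sequence of each pair. Over the 54 bases shared, the read of chr13.trna87-GlnCTG differed from that of chr11.trna1817-GlnCTG by T47C and T54A. T47C was listed only under chr13.trna87-GlnCTG, while T54A, in the last base of its read, was listed under 6 glutamine copies, chr11.trna1817-GlnCTG among them. The read of the glutamine copy with the other anticodon, chr11.trna1493-GlnTTG, differed from that of chr11.trna1817-GlnCTG by T4C and C34T over 56 bases, and C34T is the first base of the anticodon. Both reads end in C55T and A56T against the longest listed GlnCTG sequence of the same start, and other copies have these too. The read of a second GlnTTG copy, chr13.trna113-GlnTTG, differed from that of chr11.trna1817-GlnCTG by T3C, T4C, C34T and T53A, the last of these again in the final base of the read and listed under chr11.trna1817-GlnCTG too. Among the asparagine copies, the read of chr2.trna1947-AsnGTT differed from that of chr11.trna1446-AsnGTT by T6A over 54 bases, and that of chr10.trna381-AsnGTT by T6A and G38T over 52 bases. G38T does not separate these copies, since 13 of the 28 listed asparagine sequences had it, under 10 copies that include all of the 3 printed here. Of the 15 listed asparagine sequences that covered position 6, 2 had T6A, under chr2.trna1947-AsnGTT and chr10.trna381-AsnGTT. Another 1 had T6C, under chr11.trna1446-AsnGTT, so the listed reads of that copy also varied at this base.

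Reads too short to reach such a base cannot be told apart by it. The stretch gcactctggactCTGaatcc, again with the anticodon in capitals, is listed under 5 GlnCTG copies, chr3.trna309-GlnCTG and chr13.trna87-GlnCTG among them. The study's tables hold sequences picked for a difference in abundance between genotypes, so counts over them do not describe all reads. The part used here lists 138 distinct sequences for 22 of the 30 genes, 110 of them for glutamine and 28 for asparagine tRNAs, and 24 stand under more than 1 copy. The listed asparagine sequences covered the 3′ side, 26 of 28 ending in CCA, the triplet that is added to mature tRNAs after transcription. Only 4 of the 110 glutamine sequences ended in CCA, and 47 began with ggttccat, the start of the chr11.trna1817-GlnCTG read. Sequences that begin at the first base with other bases, such as the GlnTTG reads above, are not in that count. At position 9, counted from the first base of the glutamine tRNA, 9 of the 65 glutamine sequences that covered it had G9T, 7 had G9C and 2 had G9A. The guanosine at that position is known to be methylated in many tRNAs. The reads were allowed up to 2 mismatches to the genome, so a listed base need not be that of the gene, and no copy in these tables was tested for its share of sequences.

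In the positions of the files, whose header names the mouse build mm9, each counted interval holds the tRNA and 20 nt on both sides, 114 nt in all for asparagine and 112 nt for glutamine tRNAs. Shares of these genes are therefore close to values per length. No interval of another listed gene overlapped one of the 30. The copies lay on 10 chromosomes, and 11 of them stood on chromosome 3 between positions 96125977 and 97485473. Another 7 glutamine copies lay on chromosome 13 between 21264200 and 23611573. No count at all was found for 5 of the 30 genes, the 3 asparagine copies chr1.trna814-AsnGTT, chr3.trna294-AsnGTT and chr3.trna750-AsnGTT and the glutamine copies chrX.trna936-GlnTTG and chr11.trna630-GlnTTG. Over all genes, 118 of 433, or 27.3%, had no count, against 16.7% of the 30. The alignment kept reads with 1 place while the counting allowed multi-mapped reads, and how reads of identical copies were treated is not settled by these sources. The 3 asparagine copies without a count are among the 10 copies under which the study lists sequences with G38T. A count of 0 therefore does not show that a copy is silent.

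Few copies carried most of the counts. Summed over the 11 samples, chr10.trna381-AsnGTT (chr10:79711884-79711997, plus strand) gave 34.9% of all AsnGTT counts. Together with chr2.trna1947-AsnGTT (chr2:18508651-18508764, minus strand) it made up 69.1%. At E18.5 chr2.trna1947-AsnGTT was ahead, with a mean of 37.8% of the family's counts in both genotypes against 34.7% in wild-type and 33.2% in Nsun2 -/- samples for chr10.trna381-AsnGTT. The 7 AsnGTT copies on chromosome 3 held 9.25%. In GlnCTG the 3 leading copies held 71.5%, and these were chr13.trna87-GlnCTG (chr13:22012049-22012160, plus strand), chr11.trna1817-GlnCTG (chr11:68938089-68938200, minus strand) and chr3.trna309-GlnCTG (chr3:97485362-97485473, plus strand). The first of these led at E13.5, with 33.7% of the family in the wild-type sample, and was below the other 2 at E18.5, with means of 22.3% in wild-type and 21.3% in Nsun2 -/- samples. GlnTTG rested on 1 copy, chr11.trna1493-GlnTTG (chr11:95720466-95720577, minus strand), with 83.6% of its counts.

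AsnGTT was the most abundant of the 3 families at E18.5. Its share of all tRNA gene counts in the wild-type samples 1 to 4 was 4.20%, 3.89%, 3.46% and 3.95% (3.87% ± 0.31, SD, n = 4). In the Nsun2 -/- samples 1 to 4 it was 3.80%, 3.43%, 4.00% and 3.24% (3.62% ± 0.34, SD, n = 4). At E13.5 the wild-type sample had 2.69% (2.33% to 3.10%), and the Nsun2 -/- samples had 3.23% (2.89% to 3.59%) and 2.48% (2.10% to 2.93%). The genotypes overlapped at E18.5, and all 8 samples at E18.5 stood above the 3 at E13.5, if only just, since the lowest was 3.24% and the highest at E13.5 was 3.23%.

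GlnCTG, which reads CAG, had the larger share of the glutamine tRNAs and showed the widest gap between stages. At E18.5 it had 1.67%, 1.66%, 2.03% and 1.70% in wild-type samples 1 to 4 (1.77% ± 0.18, SD, n = 4). The Nsun2 -/- samples 1 to 4 had 1.42%, 1.74%, 1.93% and 1.77% (1.71% ± 0.21, SD, n = 4). At E13.5 the wild-type sample had 3.70% (3.28% to 4.17%), and the Nsun2 -/- samples had 2.74% (2.43% to 3.08%) and 2.88% (2.47% to 3.36%). No sample at E18.5 reached the lowest share at E13.5.

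GlnTTG, which reads CAA, was the smallest family. At E18.5 it had 1.24%, 1.28%, 1.52% and 1.38% in wild-type samples 1 to 4 (1.36% ± 0.12, SD, n = 4), and 1.28%, 1.34%, 1.23% and 1.25% in Nsun2 -/- samples 1 to 4 (1.27% ± 0.05, SD, n = 4). At E13.5 the wild-type sample had 1.60% (1.33% to 1.93%), and the Nsun2 -/- samples had 1.58% (1.35% to 1.84%) and 1.39% (1.11% to 1.73%). Its stages overlapped, with 7 of 8 samples at E18.5 below all 3 at E13.5. In bulk samples, fewer cells of a type and less RNA per cell cannot be told apart.

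**Figure D1:**
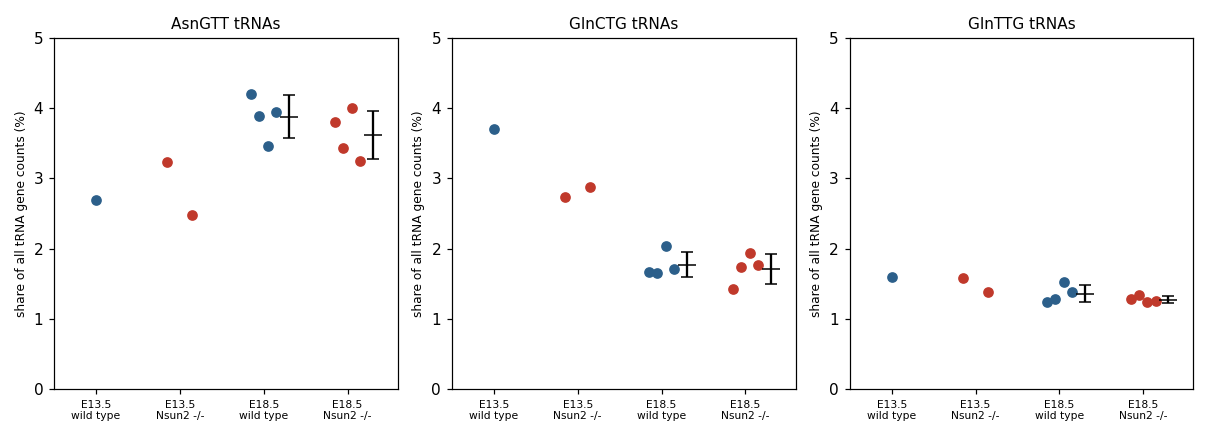
Share of all tRNA gene counts (%) taken by the AsnGTT, GlnCTG and GlnTTG families, 1 point per sample, by stage and genotype; the black dash and bar beside the groups of 4 give mean ± SD. GlnCTG lies between 2.74% and 3.70% at E13.5 and between 1.42% and 2.03% at E18.5, while the genotypes overlap at E18.5 in every panel.

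No difference between Nsun2 -/- and wild-type samples in these tRNAs passed the test at E18.5. Against wild-type samples, the log2 fold change of AsnGTT in Nsun2 -/- samples was -0.04 (SE 0.09, 95% interval -0.22 to 0.15, edgeR adjusted p = 0.859). For GlnCTG it was 0.02 (SE 0.11, -0.22 to 0.26, edgeR adjusted p = 0.916), and for GlnTTG -0.03 (SE 0.12, -0.28 to 0.21, edgeR adjusted p = 0.871). Of the 3 families none was called and none had an unadjusted p under 0.05, where 6 of all 45 families tested were called (13.3%). The sign of the GlnCTG value turned with other normalizations, and every interval here lies on both sides of 0. The p-values do not show that the genotypes are alike.

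No single copy was called either. The filter on low counts left 8 of the 30 genes at E18.5 and 106 genes in all. None of the 8 was called in edgeR or DESeq2 or had an unadjusted p under 0.05, where 10 of the 106 were called in edgeR (9.43%), and the log2 fold changes of the 8 lay between -0.23 and 0.28 (edgeR adjusted p = 0.772 to 0.995). Their median was -0.05, against 0.02 over all 106 genes. The most precisely measured was chr2.trna1947-AsnGTT, with -0.09 (SE 0.12, -0.34 to 0.17), and chr13.trna87-GlnCTG had -0.10 (SE 0.22, -0.55 to 0.36). In TMM-normalized counts, no copy among the 8 had all Nsun2 -/- samples on one side of all wild-type samples, which 16 of the 106 genes had (15.1%).

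**Figure D2:**
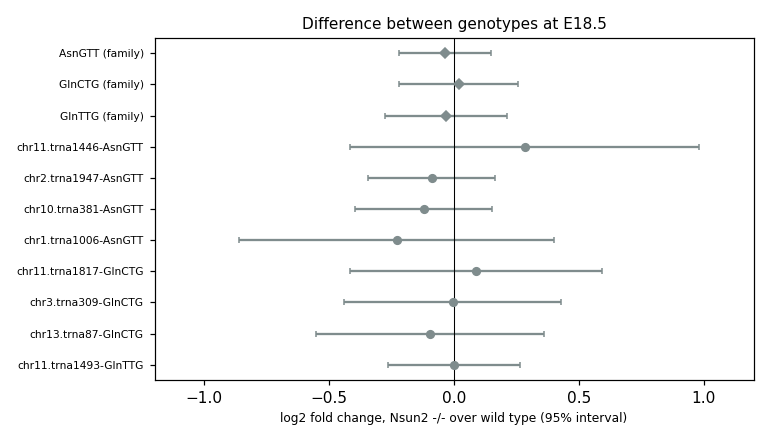
Log2 fold change of Nsun2 -/- over wild type at E18.5 with its 95% interval, for the 3 families (diamonds) and the 8 copies tested (circles), 4 samples of each genotype. Every interval crosses 0, with AsnGTT at -0.04, GlnCTG at 0.02 and GlnTTG at -0.03, and grey marks values that missed an adjusted p of 0.05.

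At E13.5 the difference between genotypes rested on 1 wild-type sample, whose spread was assumed to be that of the other groups. The edgeR test called none of 47 families and none of 155 genes (0%), DESeq2 called 0 genes, and 7 families and 12 genes had an unadjusted p under 0.05. GlnCTG was among these, lower in the Nsun2 -/- samples with a log2 fold change of -0.33 (SE 0.16, edgeR adjusted p = 0.286), and so was its copy chr13.trna87-GlnCTG with -0.45 (SE 0.22, edgeR adjusted p = 0.633). AsnGTT stood at 0.18 (SE 0.17, edgeR adjusted p = 0.66) and GlnTTG at -0.02 (SE 0.18, edgeR adjusted p = 0.922). The other 11 of 12 copies tested had no unadjusted p under 0.05.

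No difference of the genotype effect between stages was called for these tRNAs. Taking the difference at E18.5 minus that at E13.5, GlnCTG had a log2 value of 0.32 (SE 0.20, edgeR adjusted p = 0.526) and AsnGTT one of -0.25 (SE 0.20, edgeR adjusted p = 0.662). GlnTTG had -0.04 (SE 0.22, edgeR adjusted p = 0.999). Over all families 2 of 47 were called (4.26%) and over all genes 1 of 155 (0.645%), and the 12 copies tested were not among them, nor had one an unadjusted p under 0.05 or a call in DESeq2. These values again rest on 1 wild-type sample at E13.5.

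Between the stages all 3 families changed, GlnCTG most. The fit with genotype as a term gave GlnCTG a log2 fold change of -0.92 from E13.5 to E18.5 (SE 0.11, 95% interval -1.13 to -0.70, edgeR adjusted p = 7.0e-07), so that the level at E18.5 was 0.53 of that at E13.5. AsnGTT rose by 0.34 (SE 0.10, 0.13 to 0.56, edgeR adjusted p = 0.0141) and GlnTTG fell by 0.29 (SE 0.10, -0.51 to -0.08, edgeR adjusted p = 0.0284). Stage differences were common, with 18 of 47 families called (38.3%), 9 higher (19.1%) and 9 lower (19.1%), so a call by itself does not set these families apart. The labels name no batch, and a difference in library preparation between stages cannot be told apart from the stage. Depth differed too, with 4011 to 5924 counts at E18.5. At E13.5 the wild-type sample (6811) and Nsun2 -/- sample 1 (9827) lay above that range, and Nsun2 -/- sample 2 (5481) lay within it.

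The calls of the families were not equally firm. GlnCTG passed under every alternative tried, with log2 fold changes of -0.99 to -0.76. AsnGTT lost its call without the only wild-type sample at E13.5 (0.26, edgeR adjusted p = 0.143), and after TMM normalization its stages overlapped, with 3.34% in an Nsun2 -/- sample at E13.5 and 3.26% in one at E18.5. GlnTTG lost its call without Nsun2 -/- sample 1 at E13.5 (adjusted p = 0.16) or the wild-type sample at E13.5 (0.143), and without Nsun2 -/- sample 1 (0.0561) or 4 (0.0582) or wild-type sample 2 (0.0502) at E18.5. It also lost it with library size alone as the scale (edgeR adjusted p = 0.0721), with upper-quartile normalization (0.0736) and in DESeq2 (0.137), all with a fall of 0.23 to 0.30.

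Among single copies, those called were chr13.trna87-GlnCTG, chr11.trna1817-GlnCTG and chr13.trna975-GlnCTG, which fell, and chr2.trna1947-AsnGTT, which rose. They are 4 of the 12 copies that passed the filter on low counts with all 11 samples, where 41 of 155 genes were called (26.5%), 17 higher (11%) and 24 lower (15.5%). The count over the 12 is a description only, since chr13.trna975-GlnCTG and chr3.trna753-GlnCTG passed the filter through their counts at E13.5 and chr3.trna298-AsnGTT through its counts at E18.5. Without the E13.5 wild-type sample 3 copies were called, and chr13.trna975-GlnCTG was no longer tested. The TMM-normalized values of the stages did not overlap for the 4 copies, which held for 32 of the 155 genes (20.6%).

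Among the copies that passed the filter, chr13.trna87-GlnCTG had the steepest fall. In counts per all tRNA gene counts, it had 1.25% in the wild-type sample and 0.967% and 0.839% in the Nsun2 -/- samples at E13.5. At E18.5 it had 0.334%, 0.363%, 0.476% and 0.405% in wild-type samples and 0.337%, 0.318%, 0.398% and 0.399% in Nsun2 -/- samples 1 to 4. Every sample at E18.5 lay below 0.48%, far under the lowest at E13.5. The log2 fold change was -1.60 (SE 0.16, -1.93 to -1.27, edgeR adjusted p = 1.3e-09).

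The copy whose read lacks T47C in the sequences above, chr11.trna1817-GlnCTG, also fell. It had 0.910% in the wild-type sample and 0.712% and 0.785% in the Nsun2 -/- samples at E13.5. At E18.5 it had 0.334%, 0.380%, 0.604% and 0.422% in wild-type samples and 0.382%, 0.551%, 0.517% and 0.349% in Nsun2 -/- samples 1 to 4. The stages did not overlap, and the log2 fold change was -0.98 (SE 0.18, -1.36 to -0.61, edgeR adjusted p = 9.87e-05).

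The other large GlnCTG copy, chr3.trna309-GlnCTG, gave no such fall. It had 0.411% in the wild-type sample and 0.265% and 0.401% in the Nsun2 -/- samples at E13.5, and 0.315% to 0.537% with a median of 0.442% over the 8 samples at E18.5. The stages overlapped, and the log2 fold change was 0.19 (SE 0.21, -0.24 to 0.63, edgeR adjusted p = 0.528). As a part of its own family it went from 9.67%, 13.9% and 11.1% at E13.5 to between 21.6% and 28.9% at E18.5, with no overlap.

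The smaller GlnCTG copies were mostly lower at E18.5. chr13.trna975-GlnCTG fell by 1.53 on the log2 scale (SE 0.35, edgeR adjusted p = 8.8e-04), from 22, 9 and 20 counts at E13.5 to 2 to 7 counts at E18.5. As this copy passed the filter through its counts at E13.5, where it was higher, its call is a description only. chr3.trna753-GlnCTG had -0.75 (SE 0.38, edgeR adjusted p = 0.148). chr13.trna64-GlnCTG had -0.41 (SE 0.37, edgeR adjusted p = 0.454). In mean shares, 9 of the 10 GlnCTG copies were lower at E18.5 in both genotypes, the exception being chr3.trna309-GlnCTG. This count was not made over all genes. In the fit without a filter, 148 of all 315 genes had a positive log2 fold change, against 6 of the 25 asparagine and glutamine copies.

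A fit without the filter on low counts took in all 25 copies with a count in any sample. Of these, chr3.trna285-AsnGTT and chr15.trna1013-AsnGTT had counts at E13.5 only, and neither was called. The fit called 8 of the 25, where 48 of 315 genes were called (15.2%), 23 higher (7.3%) and 25 lower (7.94%). All 10 GlnCTG copies entered and 6 were lower. Beside the 3 above these were chr3.trna297-GlnCTG (log2 fold change -1.90, SE 0.56, edgeR adjusted p = 0.00898), chr3.trna756-GlnCTG (-1.39, SE 0.46, 0.0204) and chr13.trna982-GlnCTG (-1.37, SE 0.46, 0.0232), none with more than 4 counts in a sample at E18.5. They were named after their values were seen. chr3.trna309-GlnCTG was again not called (0.29, SE 0.23, edgeR adjusted p = 0.454). The remaining copy, chr9.trna342-GlnCTG, had -0.78 (SE 0.49, edgeR adjusted p = 0.327).

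Without chr13.trna87-GlnCTG, the rest of the family still had 1.77% to 2.45% of all counts at E13.5 and 1.08% to 1.56% at E18.5. With chr11.trna1817-GlnCTG left out as well, 1.06% to 1.54% at E13.5 stood against 0.697% to 1.02% at E18.5. The ranges of the stages did not overlap in either case.

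Among the asparagine copies, chr2.trna1947-AsnGTT rose. It had 0.631% in the wild-type sample and 0.814% and 0.748% in the Nsun2 -/- samples at E13.5. At E18.5 it had 1.74%, 1.43%, 1.24% and 1.45% in wild-type samples and 1.33%, 1.17%, 1.45% and 1.50% in Nsun2 -/- samples 1 to 4. All 8 samples at E18.5 lay above the 3 at E13.5, with a log2 fold change of 0.81 (SE 0.15, 0.51 to 1.12, edgeR adjusted p = 9.67e-05). Its part of the AsnGTT counts went from 23.5% to 30.1% at E13.5 to between 34.0% and 46.2% at E18.5.

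The other leading asparagine copy, chr10.trna381-AsnGTT, had 0.930% to 1.17% at E13.5 and 0.972% to 1.45% at E18.5, and its stages overlapped (log2 fold change 0.13, SE 0.14, edgeR adjusted p = 0.526). Also not called were chr1.trna1006-AsnGTT (-0.02, SE 0.25, edgeR adjusted p = 0.949), chr11.trna1446-AsnGTT (-0.22, SE 0.26, 0.561) and chr3.trna298-AsnGTT (0.75, SE 0.41, 0.177). Of the 11 AsnGTT copies with counts, 5 had higher and 3 had lower mean shares at E18.5 in both genotypes, a count not made over all genes. The fit without a filter also called chr3.trna289-AsnGTT, lower by -1.40 (SE 0.49, edgeR adjusted p = 0.0353), with at most 3 counts in a sample at E18.5.

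In GlnTTG the copy that carries the family, chr11.trna1493-GlnTTG, had 1.29% in the wild-type sample and 1.30% and 1.08% in the Nsun2 -/- samples at E13.5, and 1.01% to 1.32% with a median of 1.11% at E18.5. The stages overlapped, and its log2 fold change of -0.27 (SE 0.13, edgeR adjusted p = 0.137) was not called. The 3 small copies on chromosome 13, chr13.trna113-GlnTTG, chr13.trna114-GlnTTG and chr13.trna995-GlnTTG, held at most 14 counts in a sample. They had log2 fold changes of -0.68, -0.35 and -1.11 without the filter, and none was called (edgeR adjusted p = 0.238, 0.664 and 0.161).

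**Figure D3:**
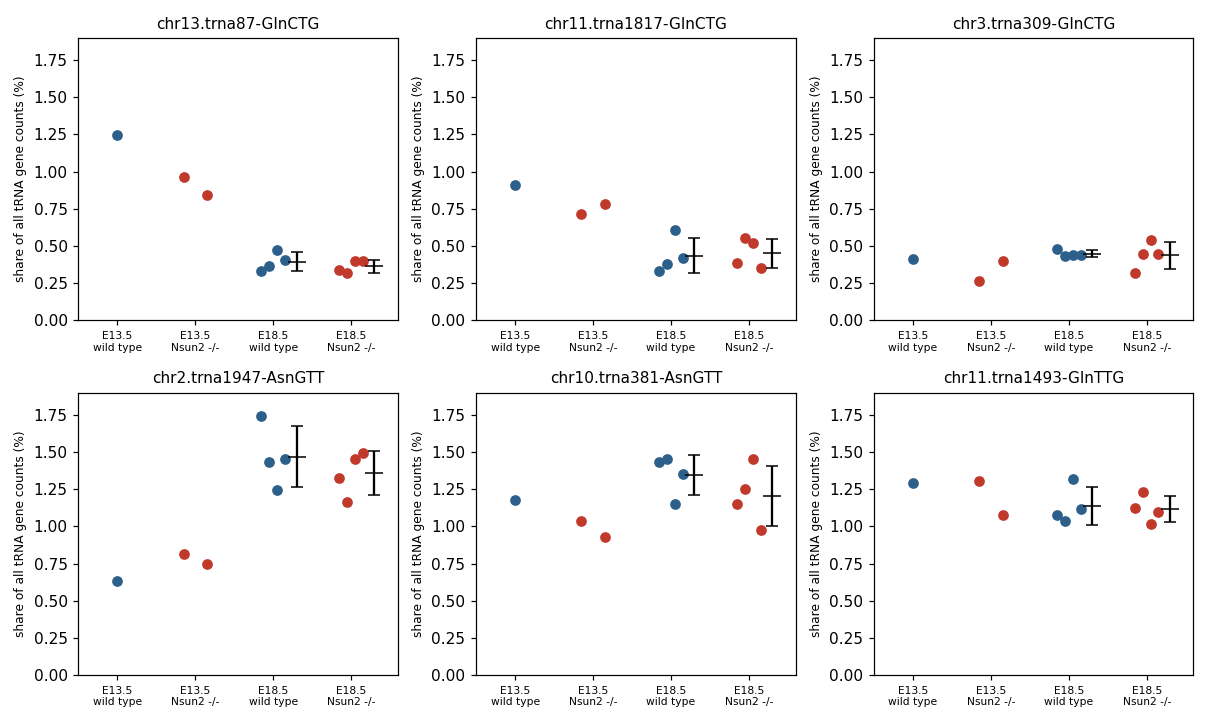
Share of all tRNA gene counts (%) of the 6 leading copies, 1 point per sample, by stage and genotype, with mean ± SD beside the groups of 4. chr13.trna87-GlnCTG falls from 0.839% or more at E13.5 to 0.476% or less at E18.5 and chr2.trna1947-AsnGTT rises above all E13.5 samples, while chr3.trna309-GlnCTG, chr10.trna381-AsnGTT and chr11.trna1493-GlnTTG overlap between stages.

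**Figure D4:**
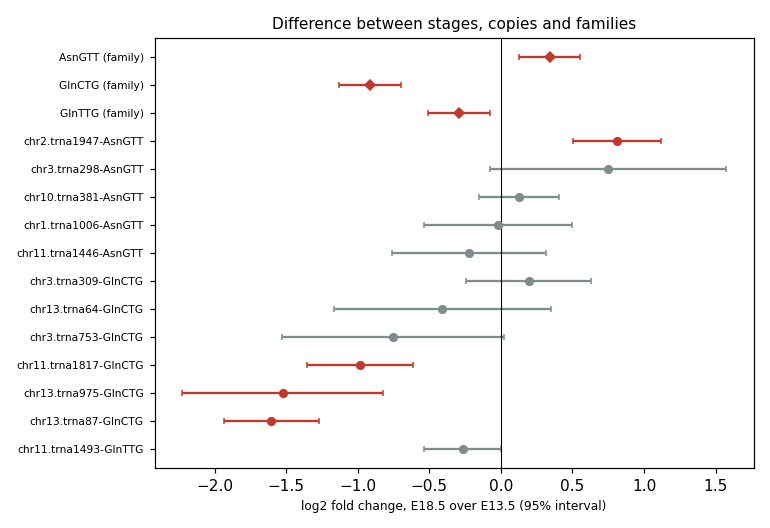
Log2 fold change of E18.5 over E13.5 with its 95% interval for the 3 families (diamonds) and the 12 copies tested (circles), over 11 samples; red marks an edgeR adjusted p under 0.05. GlnCTG copies spread from -1.60 for chr13.trna87-GlnCTG to 0.19 for chr3.trna309-GlnCTG.

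Set against each other within a family, the ratio of chr3.trna309-GlnCTG to the other 9 GlnCTG copies was 0.107 to 0.162 at E13.5 and 0.276 to 0.406 at E18.5. The ratio of chr2.trna1947-AsnGTT to chr10.trna381-AsnGTT was 0.538 to 0.804 at E13.5 and 0.932 to 1.54 at E18.5. Neither pair of ranges overlapped. The ratio of chr13.trna87-GlnCTG to chr11.trna1817-GlnCTG was 1.07 to 1.37 at E13.5 and 0.577 to 1.14 at E18.5, with an overlap. These copies were chosen after their values were seen, so the ratios are a description and were not tested. As reads of near-identical copies could be split between them, values of single copies are less certain than those of families.

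The balance between the glutamine anticodons moved towards TTG. At E13.5 there were 2.31 GlnCTG counts for each GlnTTG count in the wild-type sample and 1.74 and 2.08 in the Nsun2 -/- samples. At E18.5 there were 1.34, 1.30, 1.34 and 1.23 in wild-type samples and 1.11, 1.30, 1.56 and 1.42 in Nsun2 -/- samples 1 to 4. No sample at E18.5 reached the lowest ratio at E13.5. The difference in log2 ratio was -0.67 (two-sided exact permutation of stage within genotype, p = 0.0133, the smallest that its 75 rearrangements can give, adjusted over 2 ratios 0.0133). Without chr13.trna87-GlnCTG it was -0.44 (exact permutation p = 0.0267), and without chr11.trna1493-GlnTTG, which holds most GlnTTG counts, it was -0.18 (exact permutation p = 0.533). With the most abundant copy of each family left out it was 0.05 (exact permutation p = 0.747). Both values without chr11.trna1493-GlnTTG rest on few GlnTTG counts, since the copies left held at most 14 counts each in a sample. With that copy alone left out, the ratio ran from 9.29 to 12 at E13.5 and from 6.31 to 16.4 at E18.5.

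In counts that do not separate fragments from full-length tRNAs, the balance between the amino acids moved towards asparagine. AsnGTT counts were 0.507 of the glutamine counts in the wild-type sample and 0.748 and 0.581 in the Nsun2 -/- samples at E13.5. At E18.5 they were 1.44, 1.32, 0.974 and 1.28 of them in wild-type samples and 1.41, 1.12, 1.26 and 1.07 in Nsun2 -/- samples 1 to 4. All 8 samples at E18.5 were above all 3 at E13.5, by 1.08 in log2 ratio (exact permutation p = 0.0133, adjusted over 2 ratios 0.0133), and by 1.24 without the most abundant copies. Without the E13.5 wild-type sample, the Nsun2 -/- samples alone gave -0.51 and 0.88 for the ratios, where the smallest p their rearrangements can give is 0.0667.

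Neither ratio gave a called difference between genotypes at E18.5. The log2 ratio of GlnCTG to GlnTTG was 0.42 ± 0.21 (SD, n = 4) in Nsun2 -/- and 0.38 ± 0.06 (SD, n = 4) in wild-type samples, and 4 against 4 samples cannot give a p below 0.0286 (two-sided exact permutation p = 0.771, adjusted 0.829). The log2 ratio of AsnGTT to glutamine tRNAs was 0.27 ± 0.18 in Nsun2 -/- samples and 0.31 ± 0.24 in wild-type samples (exact permutation p = 0.829, adjusted 0.829).

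**Figure D5:**
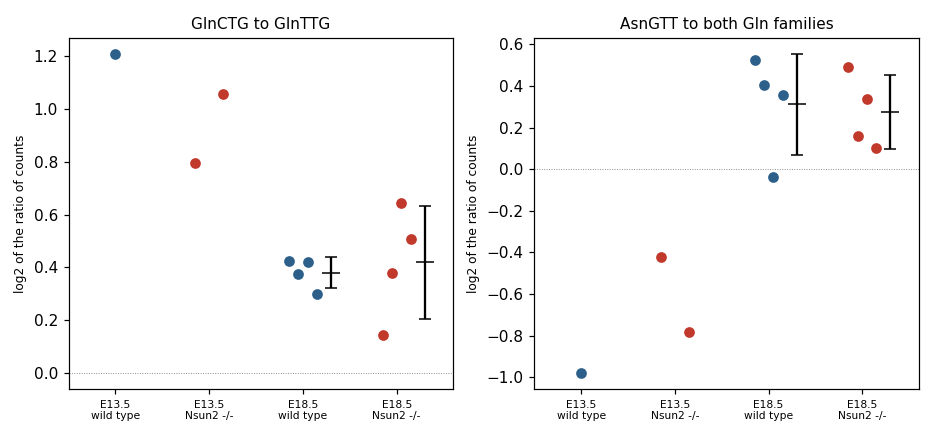
Log2 ratio of GlnCTG to GlnTTG counts and of AsnGTT to all glutamine tRNA counts, 1 point per sample, by stage and genotype, with mean ± SD beside the groups of 4 and a dotted line at equal counts. The GlnCTG to GlnTTG ratio is lower in all 8 samples at E18.5 and the AsnGTT to glutamine ratio is higher in all 8.

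Asparagine and glutamine are the amides of aspartate and glutamate, and the tRNAs of those acids were set beside them. AspGTC, GluCTC and GluTTC were called in none of the 4 tests. Between the stages AspGTC had a log2 fold change of 0.01 (SE 0.10, edgeR adjusted p = 0.961), GluCTC 0.22 (SE 0.11, 0.145) and GluTTC 0.15 (SE 0.18, 0.582). At E18.5 the difference between genotypes was 0.13 for AspGTC (SE 0.10, edgeR adjusted p = 0.454), -0.06 for GluCTC (SE 0.09, 0.735) and -0.23 for GluTTC (SE 0.22, 0.584). At E13.5, with 1 wild-type sample, it was 0.38 for GluCTC (SE 0.17), -0.02 for AspGTC (SE 0.16) and -0.08 for GluTTC (SE 0.33). The genotype-by-stage values rest on that sample too. They were -0.47 for GluCTC (SE 0.20), 0.12 for AspGTC (SE 0.19) and -0.18 for GluTTC (SE 0.38). In mean share at E18.5, GluCTC was above AsnGTT, with 6.04% ± 0.58 in wild-type and 5.59% ± 0.57 in Nsun2 -/- samples (SD, n = 4). AspGTC had 2.54% ± 0.10 and 2.65% ± 0.32 (SD, n = 4).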

How the data were processed

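The deposited values are raw counts per tRNA gene from featureCounts 1.4.4. Beforehand the authors trimmed adapters, aligned with Bowtie with up to 2 mismatches and 1 place, and realigned reads after CCA removal. The file headers name an mm9 tRNA annotation and no strand option, the methods mm10. Multi-mapped and overlapping reads were allowed in counting. Fragments and full-length tRNAs are not separated. Sequences came from the study's sequence tables, available in part.

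Groups came from the labels. Genes and family sums were tested in edgeR 4.0.16 (R 4.3.3), quasi-likelihood test, TMM normalization, filterByExpr with a minimum count of 10, Benjamini-Hochberg adjustment over all features. The E18.5 test used 8 samples, the others 11. Standard errors are the log2 fold change over the square root of F. Ratios were compared by exact permutation (scipy 1.17.1). Fits were tested on simulated data. Alternatives were other normalizations, DESeq2 1.42.0, other filters, left-out samples, a replicate block and merged samples. The members and lists were chosen with earlier results of these data known. Copies named by rule are those called in a test and the 5 most abundant of each family. Other copies, such as chr3.trna753-GlnCTG and chr9.trna342-GlnCTG, are named outside this rule.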

Additional observations from a re-analysis of the deposited data

Results flagged for a closer look

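In 3 of 38 sets of 4 samples examined at E18.5, 1 wild-type sample stood apart from the other three by more than Dixon's 95% limit, where chance flags about 1 set in 20. The GlnCTG family had 2.03% of counts in wild-type sample 3, against 1.66% to 1.70% in the others. chr3.trna309-GlnCTG had 0.483% in wild-type sample 1, against 0.432% to 0.439% in the others. chr13.trna64-GlnCTG had 0.190% in wild-type sample 2, against 0.118% to 0.130% in the others.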

How the results depend on the processing

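No call between genotypes appeared for a family, a copy or a ratio under any alternative, and log2 fold changes near 0 changed sign. At E18.5 GlnCTG stood at -0.0412 with library size only, -0.0526 with upper-quartile normalization, -0.0277 in DESeq2 and -0.0071 with all 11 samples, and between -0.0932 and 0.0915 with 1 sample left out (AsnGTT -0.136 to 0.0081, GlnTTG -0.0846 to 0.0255). At E13.5 GlnTTG was 0.0246 in DESeq2, and with 1 sample left out it lay between -0.108 and 0.0304 and AsnGTT between -0.0157 and 0.315. The stage difference of GlnTTG fell short of an adjusted p of 0.05 at -0.234 with library size only, -0.299 with upper-quartile normalization and -0.285 in DESeq2, and lay between -0.319 and -0.251 with 1 sample left out (AsnGTT 0.264 to 0.471). The genotype-by-stage value of GlnTTG was 0.0037 with library size only, 0.0456 with upper-quartile normalization, 0.0151 without a filter, 0.0529 with at least 10 counts in every sample, 0.0155 with the closest pairs merged, and -0.0892 to 0.0488 with 1 sample left out. Copies called between stages were 4, and 8 without a filter, where more copies were tested. Leaving out chr11.trna1493-GlnTTG alone, chosen after the data were seen, gave -0.175 for the stage difference of the GlnCTG to GlnTTG ratio. Without the most abundant copies the GlnCTG to GlnTTG ratio gave 0.0478 between stages and the AsnGTT to glutamine ratio 0.0181 between genotypes. The GlnCTG to GlnTTG ratio moved furthest from 0 between genotypes at E18.5 in that setting. It gave 0.472 (exact permutation p = 0.171), against 0.0387 with all copies. Few GlnTTG counts are left once chr11.trna1493-GlnTTG is out. With 1 sample left out, the stage differences were -0.733 to -0.507 and 0.875 to 1.17, and the genotype differences -0.0368 to 0.130 and -0.154 to 0.0334. Other causes were not tested.

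Counts over all genes moved by more than 1.5 times at E18.5, from 10 to 4 with upper-quartile normalization, 3 with the replicate block, 5 without Nsun2 -/- sample 1, 4 without Nsun2 -/- sample 3 and 5 without wild-type sample 1. Between stages they went from 41 to 26 without the E13.5 wild-type sample, and for genotype by stage from 1 to between 0 and 2.

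With the replicate block at E18.5, AsnGTT was -0.0363, GlnCTG 0.0127 and GlnTTG -0.0322, and the ratios were 0.0387 and -0.0378, with no call. Deviations of same-numbered samples correlated at -0.124 to 0.261, with a mean of 0.105 against -0.037 for other pairs. Of the 4 Nsun2 -/- samples, 2 correlated best with their own number. With 4 pairs this does not decide whether the numbers pair the samples. At 4011 to 9827 counts, copies with under 10 counts per sample gave no usable comparison between genotypes.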
